A study of Danio rerio with 3 samples.

Results

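Expression of 9 genes that act in dorsal to ventral patterning of the zebrafish embryo was followed across 3 arrays: the homeobox repressor genes ved and vox, the secreted inhibitor genes szl, chrd, fsta and lft1, the ligand gene bmp2b, the inhibitory Smad gene smad7 and the HLH gene id4. They were found as every probe set (a group of short oligonucleotides read as 1 signal) that the platform annotation assigns to 1 gene with one of these symbols, which gave 10 probe sets for 9 genes of 8793 genes on the array. The genes were picked with results of these same arrays known, so their differences between arrays are a description and received no test. Gene expression had been measured in pools of 400 whole embryos at 24 hours post-fertilization, with 1 array for each of 3 groups. The first group was uninjected, the second received a control siRNA, and the third received an siRNA against zebrafish PGRP-SC, a peptidoglycan recognition protein. Both siRNAs were injected into zygotes at 300 ng/µl and 1 nL per embryo, embryos of all parents were mixed first, and the labels name no strain. The sample label of the third group names only the target, and that the agent was an siRNA comes from the series' design text. No probe set (0) carried a peptidoglycan recognition protein gene name, so the knockdown was not analysed here.

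In vertebrate embryos BMP ligands bind pairs of type I and type II serine/threonine kinase receptors, which phosphorylate Smad proteins that enter the nucleus and switch on ventral genes. Secreted proteins such as Chordin hold the ligand away from its receptors on the dorsal side, and several targets of the pathway, among them inhibitory Smads and Sizzled, feed back to limit it. In zebrafish the repressors Ved, Vox and Vent keep dorsal organizer genes off in ventral cells, and after gastrulation BMP signalling continues to act in the tail, the eye and the epidermis. By their known roles 8 of the 9 genes belong to ventral patterning or the BMP pathway, while lft1 encodes an inhibitor of Nodal, a different branch of the TGF-beta family.

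Each array gave signals for 15502 zebrafish probe sets, with medians between 161.7 and 169.5. A signal under 101.7, the 40th percentile of all signals, was treated as a floor: where 1 of a pair of arrays was under it the ratio is a bound, and where both were under it no ratio is given. With 1 array per group there is no replicate check and no p-value, and precision is limited by the number of arrays. The uninjected and control siRNA arrays gave the only yardstick, their difference, which also holds any effect of injection. It was under 1.71-fold, a log2 difference of 0.77, for 95% of the 8870 probe sets that exceeded the floor in both. This range was 1.73-fold for signals from the floor to 200, 1.82-fold from 200 to 500, 1.63-fold from 500 to 1000 and 1.57-fold from 1000 upwards.

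With PGRP-SC siRNA, 8 of the 9 genes were higher than with control siRNA and id4 was lower. Signals of a gene are given below always in the order uninjected, control siRNA, PGRP-SC siRNA. The genes ved, szl, vox, lft1 and chrd were at least 2-fold higher, which is 5 of 9, and 0 were at least 2-fold lower. Of all 6514 genes that gave a ratio, 2.87% passed 2-fold upwards and 2.93% downwards (230 genes higher and 159 lower with scaling to a common median, against 187 and 191 here). With bounds at their value, the members' median log2 ratio was 1.12, which is the bound of chrd, and that of all genes was -0.0026. The members were chosen from this contrast, so nothing is read from these shares. In these bulk samples more or fewer cells of a type and more or less RNA per cell cannot be told apart.

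**Figure D1:**
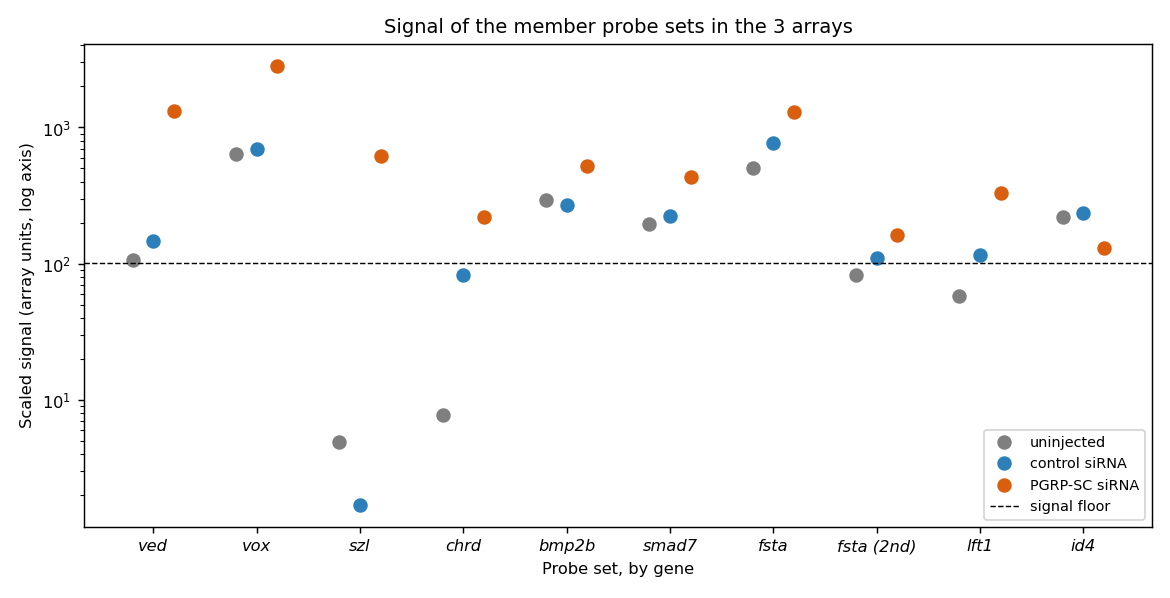
Scaled signal on a log axis (array units) of the 10 probe sets in the uninjected (grey), control siRNA (blue) and PGRP-SC siRNA (orange) arrays, 1 point per array, with the floor of 101.7 as a dashed line and the weaker fsta probe set shown as the second. The PGRP-SC siRNA point is the highest in each probe set except that of id4, where it is the lowest, and both controls of szl and chrd lie under the floor.

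Of the differences measured on both sides, those of the homeobox repressors ved and vox were the largest among the members. The gene ved had signals of 107.1, 147.3 and 1318.3. Both controls were just above the floor, and the PGRP-SC siRNA signal was 8.95-fold above control siRNA and 12.3-fold above uninjected. Because its controls are so weak, these folds depend on how weak signals enter. The log2 ratios were 3.16 to control siRNA and 3.62 to uninjected. They became 2.51 and 2.77 with the 40th percentile added to every signal as a pseudocount, and bounds of 2.29 each under a 60th percentile floor. In the order of all 9853 probe sets with a ratio to control siRNA, ved ranked 2 from the top. Bounds entered this order at their value, so the rank depends on the floor. Under a 20th percentile floor szl was at 4.07 and ved at 3.16. Its log2 difference between the controls was 0.46, inside their 95% range.

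The gene vox, which encodes a repressor with a homeodomain related to that of Ved, had signals of 642.5, 700.0 and 2828.3. Its controls differed by a log2 ratio of 0.12, and the PGRP-SC siRNA array was 4.04-fold above control siRNA and 4.40-fold above uninjected. It ranked 20 from the top against control siRNA, again with bounds at their value. The vent gene, the remaining repressor of the family and the neighbour of vox in the GRCz12tu gene table, is named here after its values were seen. It has 2 probe sets, which gave 4.11, 40.7 and 64.0, and 6.28, 15.6 and 67.7. All these vent signals were under the floor, so no ratio can be given for it.

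Among the secreted inhibitors, szl was near 0 in both controls. Sizzled inhibits the metalloproteases that cut Chordin, and its gene is itself a BMP target. Its signals were 4.91, 1.70 and 615.4. Only the PGRP-SC siRNA array was above the floor, which gives a bound of at least 6.05-fold against either control. The size of this bound is set by the floor: the log2 value of 2.60 became 4.07 under a 20th percentile floor and 1.19 under a 60th percentile one.

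The gene chrd, whose product Chordin binds BMP ligands outside the cell, had signals of 7.81, 83.0 and 221.6. Both controls were under the floor and the PGRP-SC siRNA array was at least 2.18-fold higher. Its deposited signals also differed between the controls, but under the floor such differences are not read here. With the pseudocount the log2 ratio to control siRNA was 0.81, short of a 2-fold difference.

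Follistatin, encoded by fsta, binds Activin and some BMP ligands. The stronger fsta probe set had 505.1, 772.3 and 1287.7, and the weaker one had 83.0, 109.4 and 161.5. Both probe sets had the same order of arrays. Against control siRNA the stronger probe set was 1.67-fold higher, just past the 1.63-fold range of the control pair for signals from 500 to 1000, and the weaker one 1.48-fold. Against uninjected embryos the stronger probe set was 2.55-fold higher and the weaker at least 1.59-fold.

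The gene lft1 encodes Lefty, a secreted inhibitor of Nodal. Its signals were 57.5, 115.5 and 329.1, so that the uninjected array was under the floor and the control siRNA array just above it. The PGRP-SC siRNA array was 2.85-fold above control siRNA and at least 3.24-fold above uninjected. The ratio to control siRNA was sensitive to the treatment of weak signals. Its log2 value was 1.51 here, 0.99 with the pseudocount and a bound of 0.29 under a 60th percentile floor. The other Lefty gene, lft2, named after its values were seen, had signals of 72.6, 195.2 and 203.0. For lft2 the log2 ratio to control siRNA was 0.06, and between the controls it was a bound of 0.94.

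The ligand gene bmp2b, needed for ventral fates in zebrafish, had signals of 291.2, 267.9 and 525.1. The controls were within 1.09-fold of each other and the PGRP-SC siRNA array was 1.96-fold and 1.80-fold above control siRNA and uninjected. The inhibitory Smad gene smad7, which encodes a protein that blocks receptor signalling from inside the cell, had 194.5, 222.1 and 434.1. It was 1.95-fold above control siRNA and 2.23-fold above uninjected. The ratios of bmp2b and smad7 to control siRNA lay just under the 2-fold threshold, at log2 values of 0.97 each, and passed it with scaling to a common median (1.04 and 1.03) and with cyclic loess (1.00 each). The ratios of bmp2b and smad7 to either control exceeded the 1.82-fold range of the control pair for signals from 200 to 500, except that of bmp2b to uninjected.

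The gene id4 encodes a helix-loop-helix protein without a DNA-binding region, which holds other helix-loop-helix factors away from DNA, and genes of this family are known BMP targets. Its signals were 221.2, 237.6 and 129.5. It was the only member lower with PGRP-SC siRNA, 1.83-fold below control siRNA and 1.71-fold below uninjected. The first of these is just past the control pair's range of 1.82-fold and the second is inside it. Its family members id1, id2a, id2b and id3, named after their values were seen, had log2 ratios to control siRNA of 0.30, 0.07, -0.10 and 0.33. None of these 4 was lower by as much as id4.

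**Figure D2:**
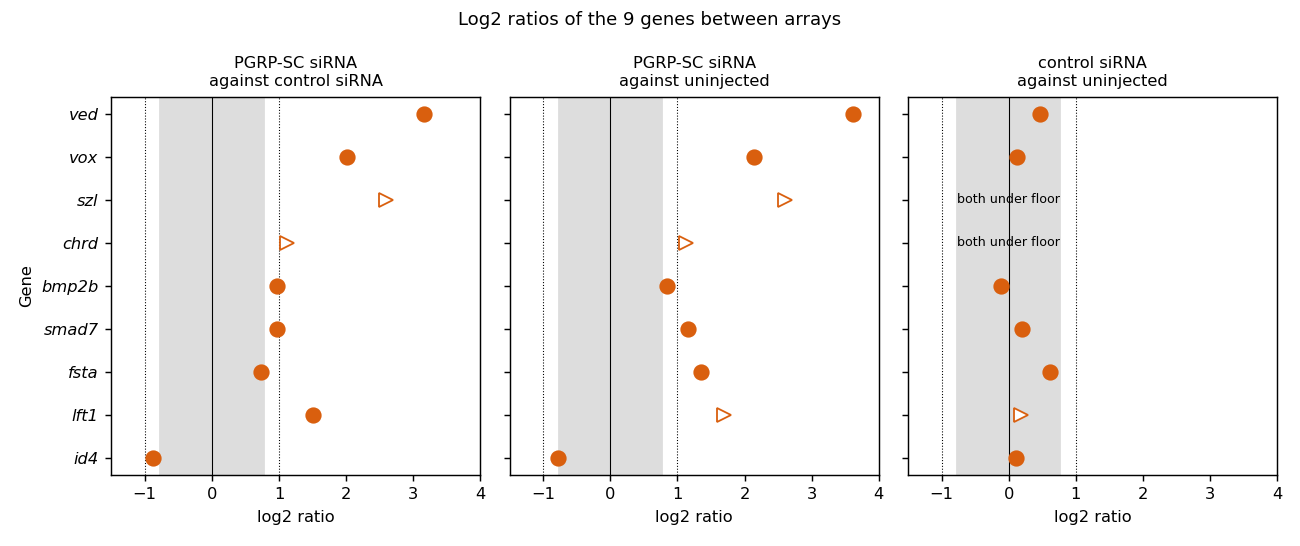
Log2 ratio of each of the 9 genes, by its strongest probe set, in the 3 comparisons between arrays, with filled circles for measured ratios, open triangles for bounds, dotted lines at 2-fold and a grey band for the log2 range of 0.77 that held 95% of probe sets in the control pair. With PGRP-SC siRNA 8 genes lie to the right of 0 in both comparisons and id4 to the left, while all 7 ratios between the controls lie inside the band.

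Against uninjected embryos, which share the PGRP-SC siRNA array with the comparison above, 7 of the 9 genes were at least 2-fold higher and 0 were at least 2-fold lower. Of all 6565 genes that gave a ratio, 5.76% passed 2-fold upwards and 6.09% downwards. The members' median log2 ratio was 1.35, against 0.02 for all genes. The genes smad7 and fsta, under 2-fold against control siRNA, passed it here, and bmp2b and id4 did not. For smad7 the log2 ratio of 1.16 was 0.69 as a bound under a 60th percentile floor and 0.86 with the pseudocount, both under 2-fold.

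Between the controls, none (0) of the 7 members with a ratio was at least 2-fold apart, where 1.11% of 6462 genes were at least 2-fold higher with control siRNA and 0.774% lower. Their median log2 ratio was 0.18, which is the bound of lft1, against 0.02 for all genes. The largest was that of fsta at 0.61 and the lowest that of bmp2b at -0.12. Without a floor, and under a 20th percentile floor, 2 members, chrd and lft1, were at least 2-fold higher with control siRNA, at log2 values of 3.41 and 1.01, and 1.18 and 1.01. With signals under the floor set to it, 5 of the 9 genes (ved, vox, smad7, fsta and lft1) rose from uninjected to control siRNA to PGRP-SC siRNA. This order was held by 25.5% of 6667 genes. The members were chosen with their PGRP-SC siRNA differences known, which bears on that array's place in the order, so nothing is read from these shares. The controls of szl and chrd have no order, bmp2b was lower with control siRNA than in uninjected embryos, and id4 was lowest with PGRP-SC siRNA. For the members above the floor in all arrays, the log2 difference between the controls was divided by that between uninjected and PGRP-SC siRNA. This share was 45.4% for fsta, 16.6% for smad7, 12.7% for ved and 5.79% for vox. The genes bmp2b and id4 moved the other way between the controls. Each of these control differences was inside the 0.77 log2 range of the control pair, so differences in share between genes are not read.

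The rest of the pathway was read from lists by role, with the members left out. Of 139 listed genes the array held 86 by name, and 25 of these were under the floor in all arrays. Against control siRNA 46 of 60 genes with a ratio were above 0 and 14 below, while 49.7% of all genes were above 0. Their median log2 ratio, with bounds at their value, was 0.42, and 7 were at least 2-fold higher and 1 lower, against 2.87% and 2.93% of all genes. The median of all genes was -0.0026. Against uninjected embryos 51 of 59 were above 0, against 51.8% of all genes, with a median of 0.59, against 0.02. In that comparison 14 were at least 2-fold higher and 0 lower, against 5.76% and 6.09% of all genes. Between the controls 38 of 55 were above 0, against 52.3% of all genes, and the median was 0.20, against 0.02. Here 2 were at least 2-fold higher and 0 lower, against 1.11% and 0.774% of all genes. The lists were made with earlier results of these arrays known, so these counts are a description as well. Where 1 array of a pair was under the floor, the sign of the bound was fixed by which array exceeded it. Against control siRNA such bounds were above 0 for bmp2a, admp, gdf3, foxh1, twsg1a and foxi1. They were below 0 for bmp8a and nog3, and these genes are listed after their values were seen. Bounds enter the counts and medians here and by role below, so nothing is read from these shares.

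The BMP and GDF ligand genes other than bmp2b had a median of 0.47 over 7 genes. None (0) was at least 2-fold apart from control siRNA, where 5.8% of all genes were. The gene bmp4, a ventral ligand, had signals of 133.1, 143.9 and 199.6. The gene bmp3 had a log2 ratio of 0.71 to control siRNA and 1.01 to uninjected, while bmp5 went the other way at -0.57 and -0.71. Of the Nodal and other TGF-beta ligand genes and their partners, gdf3, a Nodal partner supplied by the mother in zebrafish, had 88.1, 70.5 and 235.0, a bound of at least 2.31-fold against control siRNA. The Nodal co-receptor gene tdgf1 had 209.8, 503.0 and 861.3, with a log2 difference from uninjected of 2.04, of which 1.26 was already there with control siRNA. The Activin subunit gene inhbb had a log2 ratio to control siRNA of -0.70.

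Secreted modulators other than the members had the lowest median against control siRNA, -0.03 over 7 genes. Over 6 genes their median was 0.58 against uninjected, and over 6 genes it was 0.50 between the controls. The follistatin-like gene fstl1b had 93.0, 477.0 and 108.7. It was high in the control siRNA array alone, and its log2 ratio of -2.13 was the only one at least 2-fold lower. The gene bmper, whose product binds BMPs, was at 0.73, nog1, encoding a Noggin, at 0.17 and twsg1b, encoding a Twisted gastrulation protein that forms complexes with Chordin, at -0.14. Among the receptors, with a median of 0.53 over 7 genes, the type I receptor gene bmpr1ab was at 0.68 against control siRNA and 1.07 against uninjected. The type I receptor gene bmpr1ba was at 0.53 and 1.06. The gene bambia, which encodes a receptor-like inhibitor without a kinase, was at 0.66 against control siRNA. The type II receptor gene acvr2ba was at 0.60 against control siRNA and 0.43 against uninjected by its strongest probe set. Another of its probe sets, with signals of 1076.6, 617.2 and 622.6, was at 0.01 and -0.79. The remaining one was under the floor in both controls, with a bound of at least 0.33 against each.

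Of the intracellular genes, smurf1, which encodes a ubiquitin ligase for Smads and their receptors, had signals of 116.3, 178.8 and 418.5. It was 2.34-fold above control siRNA and 3.60-fold above uninjected, and its relative smurf2 was at log2 ratios of 0.47 and 1.00. The second inhibitory Smad gene, smad6a, was at 0.68 against control siRNA and smad5, which carries the BMP signal, at 0.57. The median of the 8 genes was 0.32.

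Among BMP response and ectodermal genes other than id4, 15 of 18 were above 0 against control siRNA, with a median of 0.37. Of these 18, 3 were at least 2-fold higher, against 2.87% of all genes. The zinc finger factor genes gata2a and gata3, expressed in ventral ectoderm and blood precursors, had signals of 133.8, 210.4 and 693.7, and of 291.5, 333.5 and 723.6. Both had their highest signal with PGRP-SC siRNA, 3.30-fold and 2.17-fold above control siRNA. The forkhead gene foxi1, of the developing ear, was below the floor in the controls, at 76.1 and 85.3. It reached 355.5 with PGRP-SC siRNA, at least 3.50-fold higher. The homeobox gene dlx3b was at a log2 ratio of 0.73 and msx1a at 0.38, with msx1a at 1.07 against uninjected.

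Genes of the dorsal organizer, the signalling centre that ventral repressors keep in check, were only partly measured: apart from chrd, 5 of 13 were under the floor in all arrays. The 8 with a ratio were all above 0 against control siRNA, with a median of 0.85. Of these 8, 2 were at least 2-fold higher, against 2.87% of all genes. The list is named for a role in patterning, and in these embryos of 24 hours its values are not a measure of the organizer. A relation of these values to the organizer or to ved and vox was not tested. The notochord homeobox gene noto had 86.4, 183.0 and 654.8, a 3.58-fold difference from control siRNA. The head homeobox gene otx2a had 119.1, 115.3 and 239.8 and was 2.08-fold higher. The endodermal forkhead gene foxa3 was at a log2 ratio of 0.90 and dkk1b, encoding a secreted Wnt inhibitor, at 0.87. The genes under the floor throughout, named after their values were seen, were gsc, dharma, lhx1a, frzb and sebox.

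**Figure D3:**
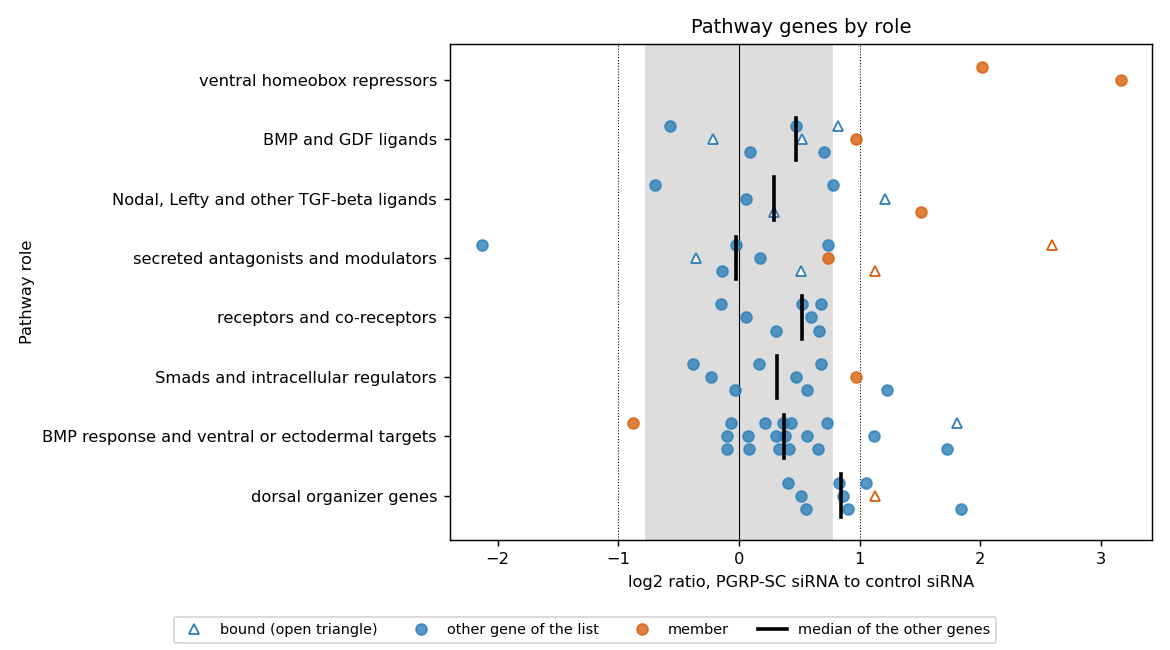
Log2 ratio of PGRP-SC siRNA to control siRNA for the genes of each pathway role, members in orange and other listed genes in blue, with circles for measured ratios, open triangles for bounds, a black bar at the median of the other genes, dotted lines at 2-fold and the grey band of the control pair (0.77). The medians run from -0.03 for secreted modulators to 0.85 for dorsal organizer genes, and chrd appears under both of these roles.

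Marker genes of several tissues of the whole embryo also differed between the arrays. All 13 skeletal muscle markers on the array, of 20 listed, were above the floor in at least 1 array, and their summed signal was 107674, 70137 and 35529.5. Of these 13, 7 were at least 2-fold lower with PGRP-SC siRNA than with control siRNA and 0 higher. Of all genes with a ratio, 2.93% were lower and 2.87% higher by this measure. Tail bud and presomitic mesoderm markers, 12 of 16 on the array with cdx1a under the floor throughout, summed to 2947, 5695 and 13858, with 5 of 11 at least 2-fold higher and 0 lower. This list shares tbxta with the organizer list. Primitive erythrocyte markers, 8 of 13 on the array, summed to 49804, 33427 and 24126, and neural markers, 9 of 10, to 11904, 10999 and 7981. At least 2-fold lower than with control siRNA were 1 of 8 erythrocyte and 2 of 9 neural markers, and 0 were higher. Hatching gland and epidermis markers, 4 of 8, summed to 54457, 58744 and 60195, and notochord markers, 6 of 7, to 5607, 6058 and 4335. Of these, 1 of 4 and 1 of 6 were at least 2-fold lower than with control siRNA and 0 higher. Sums follow the strongest markers of a list. Median log2 ratios to control siRNA were -1.03 for muscle, 0.89 for tail bud, -0.40 for erythrocyte and -0.62 for neural markers. They were 0.07 for hatching gland and epidermis and -0.20 for notochord. In the same order they were -1.63, 1.25, -1.04, -0.81, 0.01 and -0.10 to uninjected. Between the controls 3 of 13 muscle, 2 of 8 erythrocyte and 1 of 9 neural markers were at least 2-fold lower with control siRNA. There 2 of 8 tail bud markers were higher. Of all genes 0.774% were lower and 1.11% higher. Markers of each of these tissues were thus above the floor in at least 1 array. The ratio of 5' to 3' signal in the array's own control probe sets, a sign of RNA quality and labelling, was 0.369, 0.205 and 0.127 for acta1 and 0.350, 0.347 and 0.498 for GAPDH. The part of these differences in the members' values was not tested.

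The genes nearest in pattern to ved and id4 were found among 7408 probe sets of a named gene, as the distance between log2 signals centred over the 3 arrays. For ved they were tm4sf4, mknk2b, szl, cyp11a1.1 and ces3, at distances of 0.63, 0.72, 0.73, 0.80 and 0.85. Signals under the floor were set to it, so the distances of szl and tm4sf4, whose controls were both under it, rest on the PGRP-SC siRNA array and on the floor, and their place in this order is not firm. Both probe sets of tm4sf4, a membrane protein gene, were below the floor in each control and reached 676.6 and 413.1 with PGRP-SC siRNA. The kinase gene mknk2b had 87.5, 135.3 and 667.3 by the probe set found and 633.3, 570.7 and 1807.6 by its strongest, which was lower with control siRNA than in uninjected embryos. Its remaining probe set had 240.7, 327.8 and 699.5. Signals were 235.2, 536.3 and 2216.4 for cyp11a1.1 and 160.8, 126.9 and 878.6 for ces3. Their log2 differences between the controls were 1.19 and -0.34, where that of ved was 0.46. The distance of ved to vox was 1.1.

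For id4 the nearest genes were decr1, farsa, pwp2h, papss1 and padi2, at distances of 0.0014 to 0.018. Of these, papss1 was under the floor with PGRP-SC siRNA, at 63.8, and its closeness to id4 comes from setting that signal to the floor. The other probe sets of decr1 had 242.7, 221.1 and 150.9, and 220.8, 202.0 and 123.0, so in both the control siRNA signal was below the uninjected one, unlike id4. The distance of id4 to bmp2b was 1.42 and to ved 3.45. With 3 arrays a likeness of this kind rests on 3 values per gene. Distances were not scaled to the size of a gene's differences, which were smaller for id4 than for ved. The distances around id4 are therefore not compared with those around ved.

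**Figure D4:**
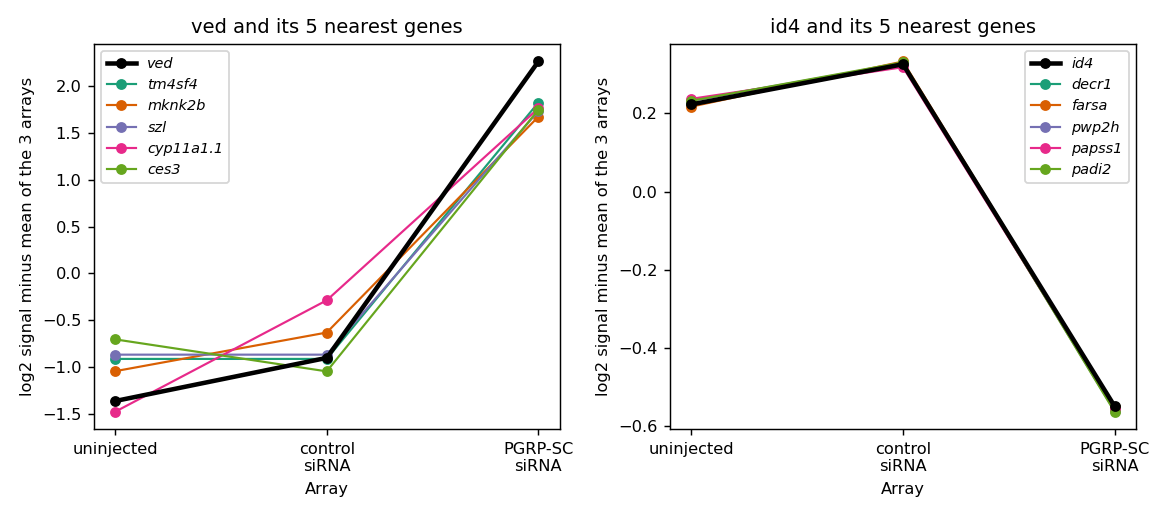
Log2 signal minus the mean of the 3 arrays for ved (left, black) and id4 (right, black) and the 5 genes nearest to each, 1 point per array, with signals under the floor set to it and different vertical scales in the panels. The ved group is highest with PGRP-SC siRNA with a spread between genes in the controls, and the lines of the id4 group, with the last papss1 point set to the floor, lie on top of each other, at distances of at most 0.018.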

How the data were processed

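Per the labels' protocols, Trizol-extracted total RNA was made into biotin-labelled cRNA for a 1-colour Affymetrix array. The deposited values are linear signal intensities, 1 for each probe set on each array, made with GCOS 1.4 per the submitters' processing notes; other settings are not given in the sources used here, and the values came without detection calls. The authors' values had equal trimmed means (500.1, 2% removed from each tail). Here 115 control probe sets were left out, each array was rescaled to the same 2% trimmed mean (factors 1.00, 0.999 and 1.00) and a floor was set at the 40th percentile. Such scaling hides differences in total RNA per embryo. Of 15502 probe sets, 10795 were assigned to 1 gene by the platform annotation, 135 to several and 4572 to none. The gene IDs of 10711 were in the RefSeq gene table, which changed 1 symbol. A gene was read from its strongest probe set by mean signal.

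Genes were counted where arrays differed by 2-fold or more. With 1 array per group no test was made. The members and lists were chosen with earlier results of these data known. Named genes were the 9 members, and in each role at most 6 genes at least 2-fold apart in any comparison plus the 3 above the floor in all arrays with the largest ratio to control siRNA, and the 5 nearest in pattern to ved and to id4, leaving out clone names. Exceptions are stated. Alternatives were median scaling, quantile normalization, cyclic loess (limma 3.58.1, R 4.3.3), no floor, floors at the 20th and 60th percentiles, the 40th percentile as a pseudocount, and averaging a gene's probe sets. Counting was tested on simulated data with changes placed only in probe sets well above the floor. Weak signals, such as the controls of ved, szl, chrd and lft1, were not covered by it. Python 3.11.15, numpy 2.4.6 and pandas 2.3.3 were used.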

Additional observations from a re-analysis of the deposited data

How the results depend on the processing

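Where a setting gave a ratio, the 8 members above 0 against control siRNA stayed above 0 and id4 stayed below, and the same held against uninjected embryos. Of 192 values of single members under an alternative, 171 moved by less than 0.35 on the log2 scale, the spread of the control pair taken as 1 SD, and 21 moved by more. No alternative reversed the direction of a value at least 2-fold apart. Some such values fell under 2-fold, among them those of chrd, lft1 and smad7 given above. Counts by role, by marker list, above 0 and by order of arrays were not recomputed under the alternatives. Recomputed were the 2-fold counts of all probe sets, members and other pathway genes. Median scaling, quantile normalization and cyclic loess moved none of these recomputed counts by over 1.5 times. Changing the floor or adding a pseudocount did, by construction, since this decides how weak signals enter. Values follow in the order no floor, 20th percentile floor, 60th percentile floor and pseudocount. Probe sets at least 2-fold apart either way numbered 3040, 1115, 292 and 301 for PGRP-SC siRNA against control siRNA (624 as reported), 3845, 1898, 634 and 701 against uninjected (1189), and 2303, 494, 78 and 76 between the controls (192).

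Members at least 2-fold higher than with control siRNA numbered 3 under the 60th percentile floor and 3 with the pseudocount, and 4 against uninjected under the 60th percentile floor. Their median log2 ratio to control siRNA was 1.42, 1.42, 0.96 and 0.81 in the order above. Against uninjected it was 2.14, 2.14 and 1.19 for the floors and 1.16 when probe sets were averaged. Between the controls the median was 0.33 under the 20th percentile floor. Without a floor 2 members (chrd and lft1) were at least 2-fold higher with control siRNA and 1 (szl) lower, and 2 were higher under the 20th percentile floor.

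Other pathway genes at least 2-fold higher than with control siRNA numbered 14, 11, 3 and 3 in the order above, and those lower 3, 2 and 0 for the floors. Against uninjected 27 were higher without a floor, 6 under the 60th percentile floor and 7 with the pseudocount, and 1 was lower without a floor. Between the controls 12, 6, 0 and 1 were higher, and 4 and 1 were lower without a floor and under the 20th percentile floor. With the pseudocount their median was 0.25 against control siRNA and 0.37 against uninjected. No paired analysis was possible because each group has 1 array. Weak signals limit ved, szl, chrd and lft1, whose controls lie under or near the floor. The log2 ratio of ved was lowest at 2.29, under the 60th percentile floor.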
